A study of Homo sapiens with 6 samples.

Results

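The 10 genes described here belong to the insulin-like growth factor (IGF) system. They were followed in Panc-1, a human pancreatic carcinoma cell line, and were found by gene name in the deposited count table: the binding protein genes IGFBP1 to IGFBP7, the receptor genes IGF1R and IGF2R, and the receptor adaptor gene IRS1. All 10 were present, among 58735 rows in all. The Panc-1 cells carried the label wild type and had been kept for 72 h with cancer-associated fibroblasts (CAF) in 3 libraries, or with CAF that overexpressed PAI-1 (here CAF-PAI-1) in 3 libraries. PAI-1 blocks plasminogen activators, and the design asks how tumour cells differ when fibroblasts beside them make more of it. The column headers call the control fibroblasts CAF-NC. The meaning of NC, the source of the CAF and the way PAI-1 was overexpressed are not given in the labels. Nor do the labels say whether or how the Panc-1 cells were kept apart from the CAF. The labels give each library as a biological replicate and say nothing of separate cultures; the p-values below reflect only how much these 6 libraries vary, which may be technical.

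IGF1 and IGF2 are secreted peptides that act through IGF1R, a receptor tyrosine kinase, whose main docking adaptors are IRS1 and IRS2; these pass the signal to PI3-kinase and AKT and, through GRB2 and SOS, to RAS and ERK. IGF2R binds IGF2 and mannose 6-phosphate-tagged lysosomal enzymes, has no kinase, and removes IGF2 from the cell surface. IGFBP1 to IGFBP6 bind IGFs with high affinity in the extracellular fluid and so hold them away from, or deliver them to, the receptor, until proteases such as PAPPA release them; IGFBP7 is a relative with low affinity for IGFs. IGFBP genes are also known outputs of fibroblasts, so the markers of that cell type are given below with the results.

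Of the 10 genes 6 changed. IGFBP3, IGFBP4, IGFBP7 and IGFBP2 rose beside CAF-PAI-1, by 2.03-fold, 1.43-fold, 1.39-fold and 1.12-fold, while IRS1 and IGF1R fell, to 0.666-fold and 0.811-fold. IGFBP1, IGFBP6 and IGF2R did not pass the test, and IGFBP5 was at the level of single counts and was not tested. "Rose" and "fell" are used here of genes with an adjusted p under 0.05 in edgeR's quasi-likelihood test, adjusted over the 14960 genes that passed a filter on low counts. The background is high: 4810 genes changed, or 32.2% of those tested, with 17.2% higher and 15.0% lower. Both groups' libraries were fully apart for 6 of the 9 tested members, and for 43.4% of all tested genes. The median log2 fold change was 0.16 over the 9 tested members and -0.00 over all tested genes. Because the members were chosen with earlier results of these data known, an excess over all genes was not tested. The split between directions depends on scaling: 2571 genes were higher and 2239 lower in all, but 1839 and 3182 when libraries were scaled by their totals alone, so that higher calls were 53.5% and then 36.6% of all calls. That scaling moves every log2 fold change by about -0.07.

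Libraries held 13628508 to 16006880 counts, so 3 counts are worth 0.182 to 0.218 CPM, depending on the library (CPM are counts relative to library size, here scaled by TMM). CAF-PAI-1 replicate 2 stood apart, with a chi-square per degree of freedom of 9.51 and 6.63 against the other libraries of its group, which had 3.39 between them, and it is said beside each named gene where its call changes without this library. Most fibroblast markers were nearly absent: 10 of the 12 listed stayed below 1 CPM in all 6 libraries. The summed level of all 12 was 115 to 128 CPM in the CAF group and 114 to 123 CPM in the CAF-PAI-1 group, most of it from FBLN1, at 116 ± 6.25 and 110.0 ± 6.17 CPM (SD, n = 3 each); COL3A1 followed at 5.22 ± 0.84 and 6.44 ± 0.88 CPM, and MFAP5 was at 0. Among the rest, a subset of 7 (FAP, POSTN, DCN, LUM, COL1A2, PDGFRA, PDGFRB) had 13 counts together in the CAF group and 9 in the CAF-PAI-1 group. ACTA2 had 27 and 16 counts, and THY1 17 and 19. Because these are bulk libraries, fewer cells of a type and less RNA per cell cannot be told apart. Of the 6 epithelial markers 4 rose (summed level 1781 to 1891 CPM, then 2046 to 2308). This is 66.7%, beside 17.2% of all tested genes called higher, and the difference in share was not tested. KRT8, at 1015 ± 31.6 and 1140 ± 75.3 CPM, and KRT18, at 581 ± 22.8 and 751 ± 33.4 CPM, were the most abundant. KRT19 followed, at 208 ± 7.83 and 268 ± 25.7 CPM, and also rose. The others were low: KRT7 had 8.16 ± 0.62 and 12.5 ± 1.30 CPM, and EPCAM 7.06 ± 0.46 and 8.10 ± 1.36 CPM. CDH1, at 1.67 ± 0.21 and 1.01 ± 0.33 CPM, had a log2 fold change of -0.73 and was not called (edgeR adjusted p = 0.115). The labels' extraction text speaks of another line, Cal27, which is squamous, with Stattic or DMSO. All other labels name Panc-1. Among 6 squamous markers 5 stayed below 1 CPM throughout, TP63 with them, and S100A2 rose from 4.56 ± 0.42 to 9.75 ± 1.20 CPM (summed level 5.03 to 5.86 CPM, then 9.70 to 11.2). Among 7 endothelial markers 5 stayed below 1 CPM throughout and TEK was at 0, while ESAM rose from 8.81 ± 0.66 to 12.05 ± 1.38 CPM and KDR from 0.83 ± 0.22 to 1.85 ± 0.61 CPM (summed level 9.89 to 10.4 CPM, then 12.6 to 16.2). Only 1 squamous and 2 endothelial markers were tested, and all rose, beside 17.2% of all tested genes called higher. Among 5 immune markers 4 stayed below 1 CPM throughout, PTPRC with them, CD3E was at 0, and CD14 had 5.52 ± 0.55 and 6.02 ± 0.74 CPM. Mitochondrial genes took 5.53% to 5.92% of counts with CAF and 3.78% to 5.12% with CAF-PAI-1. The epithelial, squamous and endothelial sums and the mitochondrial share differed between the groups without overlap. The fibroblast sums overlapped, as did the immune sums, at 5.32 to 6.74 CPM with CAF and 5.62 to 6.77 with CAF-PAI-1. What part any of these had in the results below was not tested.

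The promoters of the genes that rose most, IGFBP3 and IGFBP4, and of the genes that fell, IRS1 and IGF1R, are shown because these members carry the comparison. Each is the stretch before the RefSeq start site on GRCh38.p14, 5′ to 3′ on the gene's own strand, chr7:45921275-45921522 (minus strand, 248 bases, leaving out the 2 bases next to the start, which lie in an annotated exon), chr17:40443200-40443449 (plus, 250 bases), chr2:226799821-226800070 (minus, 250 bases) and chr15:98648289-98648538 (plus, 250 bases). Capitals mark matches, on either strand, to letters bound by known factors: GGGCGG for SP1, GCGNGGGCG for EGR factors, GGAATG for TEAD factors, ACGTG for hypoxia-inducible factors and TATAAA for the TATA box.
IGFBP3: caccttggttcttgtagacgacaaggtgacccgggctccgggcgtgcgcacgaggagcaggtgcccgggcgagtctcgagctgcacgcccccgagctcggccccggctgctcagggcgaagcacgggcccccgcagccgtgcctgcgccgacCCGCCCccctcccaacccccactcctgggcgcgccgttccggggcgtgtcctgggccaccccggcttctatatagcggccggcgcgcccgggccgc
IGFBP4: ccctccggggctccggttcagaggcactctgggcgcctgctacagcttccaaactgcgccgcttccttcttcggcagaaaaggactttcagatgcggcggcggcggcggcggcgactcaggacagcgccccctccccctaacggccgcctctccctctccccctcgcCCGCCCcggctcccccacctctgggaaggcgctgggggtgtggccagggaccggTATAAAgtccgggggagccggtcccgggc
IRS1: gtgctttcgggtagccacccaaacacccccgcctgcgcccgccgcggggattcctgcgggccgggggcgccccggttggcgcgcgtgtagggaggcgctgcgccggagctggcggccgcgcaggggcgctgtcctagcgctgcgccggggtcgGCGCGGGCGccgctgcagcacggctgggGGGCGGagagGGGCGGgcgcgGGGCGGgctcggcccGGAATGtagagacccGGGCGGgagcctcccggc
IGF1R: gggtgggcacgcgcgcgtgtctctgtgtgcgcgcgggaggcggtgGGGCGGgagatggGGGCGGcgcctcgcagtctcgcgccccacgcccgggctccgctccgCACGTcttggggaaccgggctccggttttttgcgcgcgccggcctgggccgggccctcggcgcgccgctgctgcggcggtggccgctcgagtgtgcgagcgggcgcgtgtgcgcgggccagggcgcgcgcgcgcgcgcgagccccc

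All 4 stretches are rich in G and C, with 75.8% in IGFBP3, 71.6% in IGFBP4, 80.8% in IRS1 and 81.2% in IGF1R, against a median of 58.0% over the 35116 promoter windows of the RefSeq table. IGFBP4 had a TATA match, 29 bases before the start, and one SP1 match. IRS1 had 4 SP1 matches, 1 TEAD match and 1 EGR match, whose first base lay 97 bases before the start. IGF1R had 2 SP1 matches and 1 hypoxia match, and IGFBP3 had 2 SP1 matches in its 250 bases, one of them cut off by the trimmed end. The table held 10 windows for 8 of the 10 members. An SP1 match was in 8 of the 10 windows and in 42.6% of all windows, an EGR match in 2 and in 8.42%, a TEAD match in 3 and in 11.9%, and a hypoxia match in 2 (IGF2R and IGF1R) and in 18.5%. A TATA match was in 1 and in 10.7% of all windows. The AP-1 letters TGANTCA were in 0 of the 10 windows and in 6.57% of all, the insulin response element core CAAAACA in 0 and in 4.30%, and the FOXO letters GTAAACA in 1, that of IGFBP6, and in 2.98%. These are matches of letters in short windows, partly overlapping where a motif reads on both strands, and describe no binding.

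Among the binding proteins, IGFBP3 changed most. IGFBP3, the main carrier of IGFs in serum, had 64.1, 75.3 and 72.4 CPM in CAF replicates 1 to 3 and 144, 133 and 152 CPM in CAF-PAI-1 replicates 1 to 3. The highest CAF library was well below the lowest CAF-PAI-1 library. The log2 fold change was 1.02 (SE 0.066, 95% interval 0.89 to 1.16, edgeR adjusted p = 4.01e-14), larger than 98.6% of the log2 fold changes of all tested genes. It lay between 0.95 and 1.07 under all 14 alternative settings and stayed called in each. IGFBP3 (ENSG00000146674) is on chromosome 7, minus strand, 45912245 to 45921874 in GENCODE release 29 on GRCh38.

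IGFBP4, a binding protein that mostly inhibits IGF action and is the main substrate of PAPPA, was the most abundant member. It had 740.0, 759 and 732 CPM with CAF and 1022, 1106 and 1056 CPM with CAF-PAI-1. No CAF library reached the level of any CAF-PAI-1 library. Its log2 fold change was 0.51 (SE 0.053, 95% interval 0.41 to 0.62, edgeR adjusted p = 1.57e-09), between 0.45 and 0.54 under the alternatives and called in all 14. IGFBP4 (ENSG00000141753) is on chromosome 17, plus strand, 40443461 to 40457731.

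IGFBP7, the low-affinity relative, was far less abundant and also rose. Its libraries had 6.49, 6.11 and 6.04 CPM with CAF and 7.78, 9.01 and 9.12 CPM with CAF-PAI-1, without overlap. This is a log2 fold change of 0.47 (SE 0.15, 95% interval 0.16 to 0.78, edgeR adjusted p = 0.0157). Without CAF-PAI-1 replicate 3 it was 0.43 and no longer called (adjusted p = 0.0667). IGFBP7 (ENSG00000163453, minus strand of chromosome 4, 57030773 to 57110385) also overlaps POLR2B by 270 exonic bases on the opposite strand, and the labels do not say whether counting used strand, so reads of the shared stretch cannot be assigned with certainty. POLR2B, a subunit of RNA polymerase II, had 1887 to 2085 counts with CAF and 1851 to 1968 with CAF-PAI-1, against 84 to 107 and 115 to 141 for IGFBP7. The log2 fold change of POLR2B was 0.00 (SE 0.057).

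IGFBP2, which carries an integrin-binding motif beside its IGF site, rose by a small amount. It had 171, 171 and 157 CPM with CAF and 181, 195 and 185 CPM with CAF-PAI-1. The groups did not overlap, but the nearest libraries, at 171 and 181 CPM, were nearer to each other than the extremes of either group. The change was 0.16 on the log2 scale (SE 0.056, 95% interval 0.05 to 0.28, edgeR adjusted p = 0.0234). The call ended without CAF replicate 3 (0.13, adjusted p = 0.173), without CAF-PAI-1 replicate 2 (0.13, 0.0581), and with scaling by library total alone (0.10, 0.193).

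The other binding protein genes were low and not called. IGFBP1, a liver-type binding protein repressed by insulin, had 3.40, 3.21 and 2.80 CPM with CAF and 2.37, 3.12 and 3.75 CPM with CAF-PAI-1. Its CAF libraries lay within the range of the CAF-PAI-1 libraries (log2 fold change -0.03, SE 0.23, 95% interval -0.51 to 0.45, edgeR adjusted p = 0.942). IGFBP6, which prefers IGF2, had 5.64, 5.61 and 4.46 CPM and then 5.08, 7.63 and 5.88 CPM, with overlap (0.23, SE 0.18, interval -0.14 to 0.60, adjusted p = 0.353). The intervals allow a fold of 0.704 to 1.36 for IGFBP1 and of 0.909 to 1.52 for IGFBP6, so a change of the size seen for IGFBP3 lies outside both, while one like that of IGFBP4 lies inside that of IGFBP6 only. IGFBP5, a binding protein that attaches to extracellular matrix, had 2, 1 and 0 counts with CAF and 2, 0 and 0 with CAF-PAI-1. No library exceeded 3 counts, and no fold is given.

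**Figure D1:**
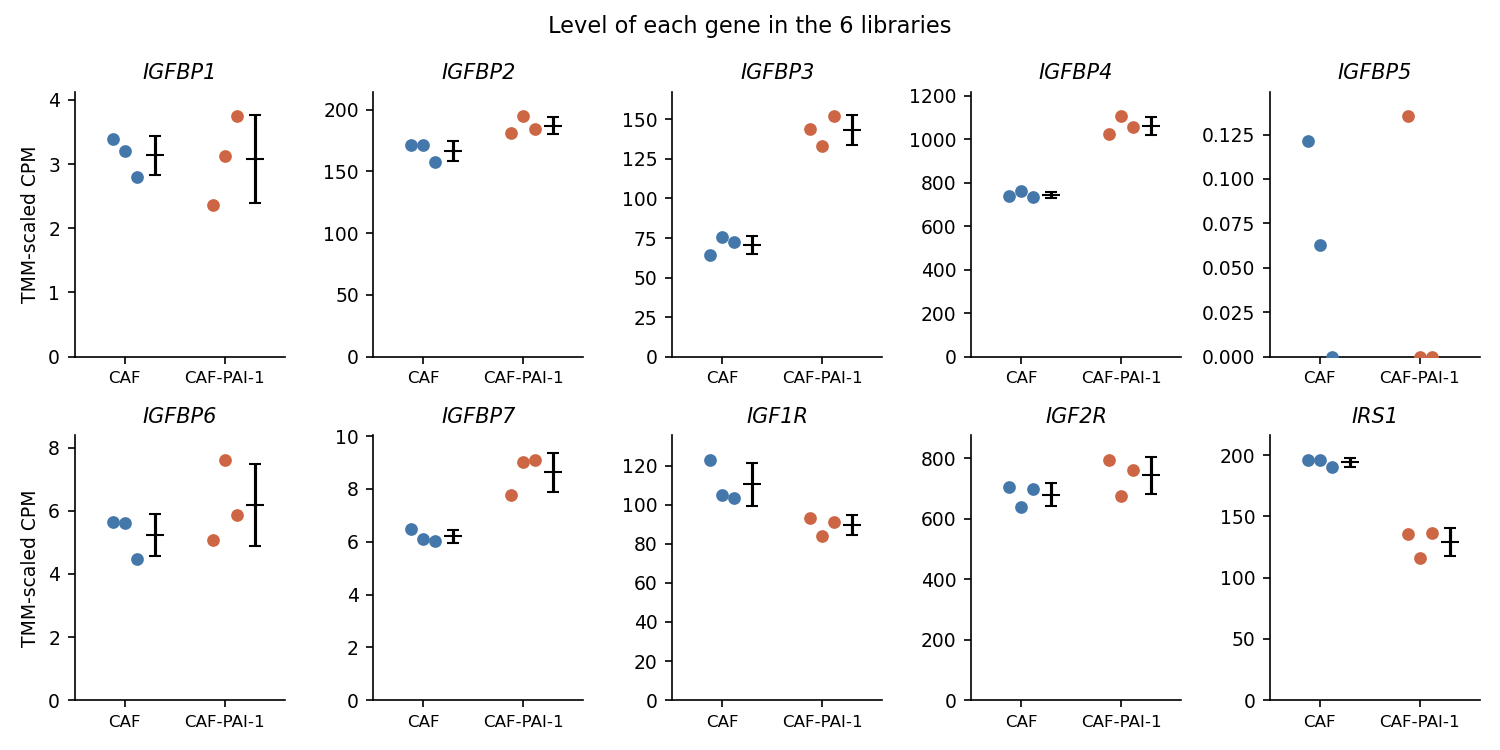
TMM-scaled CPM (vertical axes, each starting at 0) of the 10 genes in the 3 CAF libraries (blue) and the 3 CAF-PAI-1 libraries (orange), replicates 1 to 3 from left to right, with the mean and SD beside the points except for IGFBP5. The groups are apart for IGFBP2, IGFBP3, IGFBP4, IGFBP7, IGF1R and IRS1 and overlap for IGFBP1, IGFBP6 and IGF2R.

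Among the binding protein genes 4 form 2 neighbouring pairs whose 3′ ends face each other. IGFBP1 and IGFBP3 lie 18576 bases apart on chromosome 7, and IGFBP2 and IGFBP5 7668 bases apart on chromosome 2. The members of each pair differed in level and change. IGFBP3 had log2 1.02 and 143 CPM beside CAF-PAI-1, where IGFBP1 had -0.03 and 3.08 CPM. IGFBP2 had 187 CPM there, and IGFBP5 2 counts in 3 libraries. The difference in change within a pair was not tested.

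Levels of different genes can be set side by side only per length, and here the length is that of all exons of a gene joined. On this scale, in CPM per kb, IGFBP4 led with 338 ± 6.35 with CAF and 482 ± 19.1 with CAF-PAI-1 (SD, n = 3 each), above 99.7% of all tested genes by its mean. IGF2R, at 38.1 ± 2.07 and 41.7 ± 3.45, and IGFBP2, at 35.0 ± 1.72 and 39.2 ± 1.46, followed and overlapped with each other; with the longest transcript as length they were apart, at 48.4 ± 2.63 and 37.8 ± 1.86 with CAF. IGFBP3 and IRS1 changed places in the order. IGFBP3 went from 15.4 ± 1.28 to 31.3 ± 2.05 CPM per kb and IRS1 from 19.5 ± 0.36 to 13.0 ± 1.13. IGF1R had 7.92 ± 0.79 and 6.42 ± 0.35. IGFBP6, at 3.89 ± 0.50 and 4.60 ± 0.97, and IGFBP7, at 3.22 ± 0.13 and 4.47 ± 0.38, overlapped. IGFBP1 stood at 1.90 ± 0.18 and 1.86 ± 0.42, and IGFBP5 had at most 0.021 CPM per kb in a library. The place of IGFBP3 depends on the length taken: with its longest transcript, 2412 bases against 4571 for all exons, it had 29.3 ± 2.42 and 59.4 ± 3.88 CPM per kb, and was above IRS1 in both groups.

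**Figure D2:**
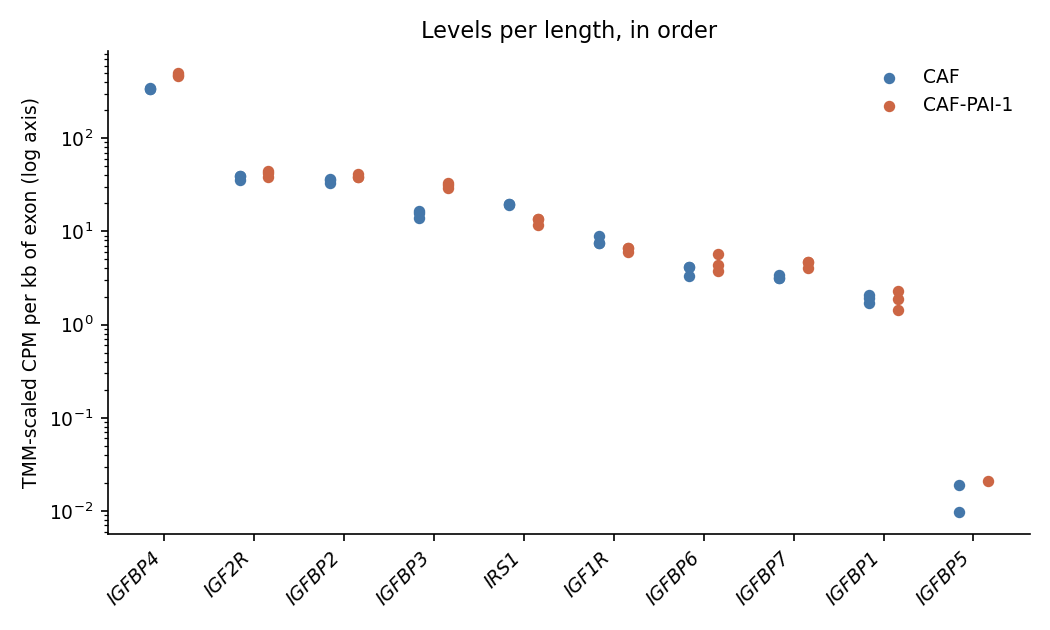
TMM-scaled CPM per kb of joined exons (log axis) of the 10 genes, ordered by their mean, with 1 point per library for CAF (blue) and CAF-PAI-1 (orange); the 3 libraries with 0 counts of IGFBP5 are not drawn. IGFBP4 lies near 338 and 482 CPM per kb, and IGFBP3 moves from below IRS1 to above it.

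The makeup of binding protein RNA changed little in its largest part. IGFBP4 made up 85.1 ± 0.30% of the counts per length of the 7 IGFBP genes with CAF and 85.5 ± 0.37% with CAF-PAI-1 (SD, n = 3 each). The share of IGFBP3 was 3.54%, 4.05% and 4.06% with CAF and 5.79%, 4.99% and 5.91% with CAF-PAI-1. That of IGFBP2 was 9.08%, 8.84% and 8.46% and then 7.002%, 6.98% and 6.88%. Both shares separate the groups, IGFBP3 being higher and IGFBP2 lower beside CAF-PAI-1, although the CPM of both genes was higher. With the longest transcript as length, the share of IGFBP4 was 81.3 ± 0.29% with CAF and 80.8 ± 0.67% with CAF-PAI-1. The direction of its small difference thus depends on the length taken. The share of IGFBP3 was then 7.04 ± 0.53% with CAF and 9.95 ± 0.86% with CAF-PAI-1. The summed level of the 7 genes was 396, 407 and 389.8 CPM per kb with CAF and 544, 585 and 563 with CAF-PAI-1, most of it IGFBP4.

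Of the receptors, IGF1R fell and IGF2R was not called. IGF1R, the signalling receptor, had 123, 105 and 103 CPM with CAF and 93.4, 84.0 and 91.3 CPM with CAF-PAI-1. CAF replicate 1 was the highest, and the other CAF libraries still lay above every CAF-PAI-1 library. This gave a log2 fold change of -0.30 (SE 0.067, 95% interval -0.44 to -0.17, edgeR adjusted p = 0.000647). It lay between -0.37 and -0.22 under the 14 alternatives, called in all of them; the value nearest 0 came without CAF replicate 1 (adjusted p = 0.0213). IGF1R (ENSG00000140443) is on chromosome 15, plus strand, 98648539 to 98964530.

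IGF2R, the scavenging receptor, had 704, 638 and 699 CPM with CAF and 796, 676 and 760.4 CPM with CAF-PAI-1. CAF-PAI-1 replicate 2 was the lowest of its group and lay among the CAF libraries. The log2 fold change was 0.13 (SE 0.059, 95% interval 0.01 to 0.25, edgeR adjusted p = 0.0906), and without that library it was 0.19 and called (adjusted p = 0.00123). The ratio of IGF1R to IGF2R per length was 0.224, 0.210 and 0.190 with CAF and 0.150, 0.159 and 0.154 with CAF-PAI-1. These do not overlap.

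IRS1, the docking protein that carries the signal of IGF1R and of the insulin receptor to PI3-kinase, had the largest fall of the members. It had 196, 196 and 190.2 CPM with CAF and 135, 116 and 136 CPM with CAF-PAI-1. CAF-PAI-1 replicate 2 was lowest, and the gap between the groups was larger than the range within either. Its log2 fold change was -0.59 (SE 0.060, 95% interval -0.71 to -0.46, edgeR adjusted p = 1.54e-09), with -0.65 to -0.52 under the 14 alternatives and a call in each. A lower log2 fold change was found for 7.07% of all tested genes. IRS1 (ENSG00000169047) is on chromosome 2, minus strand, 226731317 to 226799759.

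**Figure D3:**
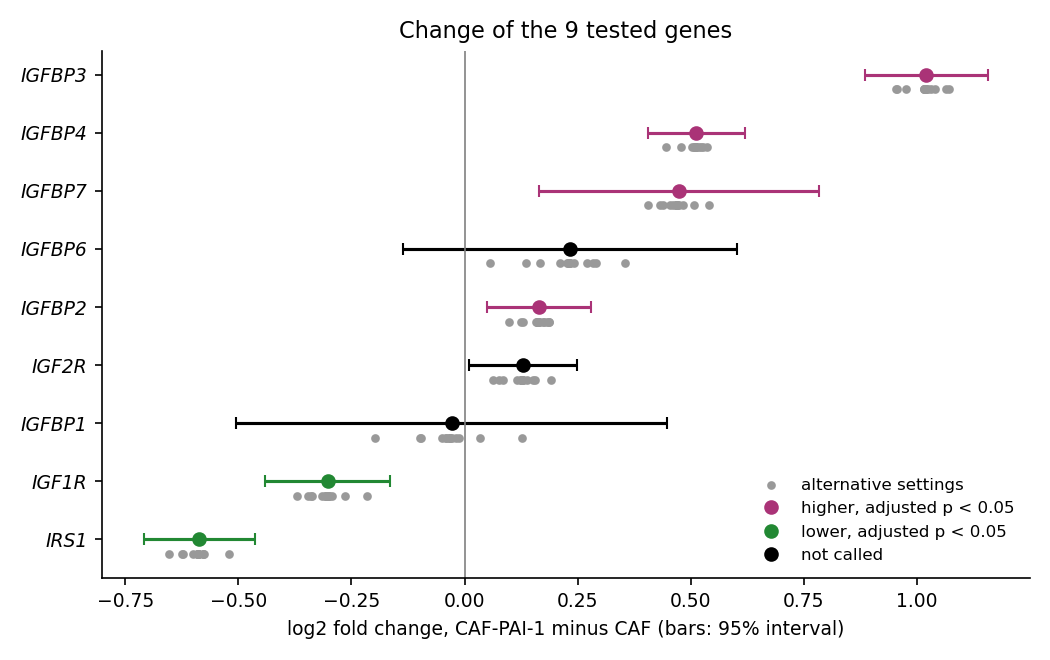
Log2 fold change, CAF-PAI-1 minus CAF, of the 9 tested genes with 95% intervals from the edgeR fit (bars), and the values under the 14 alternative settings (grey points below each bar). IGFBP3, at 1.02, lies apart from the rest, and the intervals of IGFBP1 and IGFBP6 cover 0.

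The other 77 genes listed for the IGF axis were examined by role; 64 rows passed the filter, 7 rose and 12 fell, which is 29.7% called beside the 32.2% of all genes. With scaling by library total alone 4 rose and 19 fell, and without CAF-PAI-1 replicate 2 9 rose and 9 fell. Ligand RNA was low. IGF2 had 8.86, 7.50 and 6.18 CPM with CAF and 9.88, 8.64 and 9.05 CPM with CAF-PAI-1, overlapping (log2 fold change 0.28, SE 0.15, edgeR adjusted p = 0.155). IGF1 had 1 count in the 6 libraries together and INS had 0. A second identifier named IGF2 in the table had 0 counts throughout.

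Receptor partners and adaptors were mixed. INSR, the insulin receptor, had 5.29 ± 0.63 and 4.16 ± 0.56 CPM (-0.35 on the log2 scale, SE 0.19, edgeR adjusted p = 0.169), and its relative INSRR had 4 and 2 counts in all. Of 6 adaptors tested, IRS2 fell and GRB10 rose, which is 33.3% called beside 32.2% of all genes. IRS2, the second main docking protein, had 33.3, 28.1 and 29.1 CPM with CAF and 21.4, 22.6 and 23.3 CPM with CAF-PAI-1, without overlap (log2 fold change -0.43, SE 0.093, edgeR adjusted p = 0.000485). Both expressed IRS genes thus fell, and IRS4 had 0 counts. IRS1 exceeded IRS2 per length 4.82, 5.71 and 5.35 times with CAF and 5.17, 4.21 and 4.78 times with CAF-PAI-1, ranges that overlap. GRB10, an adaptor that inhibits IGF1R and the insulin receptor, rose from 123 ± 5.25 to 151 ± 2.18 CPM (0.29, SE 0.057). The abundant adaptors SHC1 and GRB2 had 0.05 and -0.08 and were not called; without CAF-PAI-1 replicate 2, whose SHC1 level was the lowest of the 6 libraries, SHC1 had 0.19 and was called higher. With library totals alone SHC1 had -0.02 and GRB2 was called lower.

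Of 9 genes listed as acting on the binding proteins after secretion, 5 were tested and 3 rose. This is 60% called, beside 32.2% of all genes, of which 17.2% were higher. The list is short and was chosen with earlier results of these data known, so the difference in share was not tested. STC1 and STC2, stanniocalcins that inhibit PAPPA, rose. STC1 went from 14.9, 17.0 and 18.6 CPM to 40.8, 40.7 and 43.3 CPM, and STC2 from 400.2, 388 and 394 CPM to 525, 542 and 529 CPM. The log2 fold changes were 1.31 (SE 0.092, edgeR adjusted p = 2.25e-13) and 0.43 (SE 0.051, 3.32e-08), and both calls held under all 14 alternatives. PAPPA itself, the protease they inhibit and that cuts IGFBP4, had 15 counts in the CAF group and 14 in the CAF-PAI-1 group, and PAPPA2 had 3 and 3. ADAM9, a membrane protease reported to cut IGFBP5, had a small rise of 0.17 (SE 0.054, adjusted p = 0.0176), which was lost under 5 of the 14 alternatives. HTRA1, a secreted protease, had 28.9 ± 0.51 and 32.5 ± 3.35 CPM and was not called, but was called higher without CAF-PAI-1 replicate 1. Of the secreted relatives of the IGFBPs none of 3 tested was called: CRIM1 had 524 ± 15.1 and 553 ± 28.1 CPM, KAZALD1 12.8 ± 0.90 and 11.6 ± 1.34 CPM, and IGFBPL1 3.64 ± 0.85 and 2.81 ± 0.29 CPM. IGFALS, the partner of IGFBP3 in serum complexes, had 12 and 9 counts and was not tested.

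Downstream of the receptors, 8 of 24 tested genes of the PI3-kinase, AKT, mTOR and FOXO list fell and 1 rose, with a median log2 fold change of -0.10. This is 37.5% called, beside 32.2% of all genes, of which 15.0% were lower and 17.2% higher. Of the 8, FOXO3 (-0.17) and PIK3CB (-0.18) each lost the call under 6 of the 14 alternatives, including that without CAF-PAI-1 replicate 2. PIK3R3, a regulatory subunit of PI3-kinase, fell from 56.8 ± 2.81 to 36.4 ± 0.96 CPM (-0.64, SE 0.073, edgeR adjusted p = 1.51e-08). RICTOR, of the mTOR complex that acts on AKT, fell by 0.41 (SE 0.074) and TSC1, an inhibitor of mTOR, by 0.39 (SE 0.072) on the log2 scale. PHLPP2, a phosphatase that acts on AKT, rose by 0.34 (SE 0.10), a call lost without CAF replicate 1 or CAF-PAI-1 replicate 1. AKT2, which is known to be amplified in Panc-1, was by far the highest of the list in CPM, at 2346 ± 103 and 2283 ± 105 (-0.04, SE 0.055), and AKT1, at 190 ± 7.83 and 176 ± 6.21 CPM, had -0.11; neither was called, but AKT1 was called lower with library totals alone.

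In the RAS to ERK list 2 of 12 genes fell and none rose. This is 16.7% called, beside 32.2% of all genes, with 15.0% lower and 17.2% higher. SOS1, the exchange factor that loads RAS, had 104, 104 and 113 CPM with CAF and 70.7, 65.9 and 64.6 CPM with CAF-PAI-1 (log2 fold change -0.67, SE 0.064, edgeR adjusted p = 3.40e-10). MAPK3, which encodes ERK1, had -0.22 (SE 0.078, adjusted p = 0.031); its groups overlapped and the call was lost under 4 of the 14 alternatives, among them that without CAF-PAI-1 replicate 2. NRAS, at 134 ± 5.53 and 146 ± 3.29 CPM, was not called.

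Genes of the mannose 6-phosphate route, which IGF2R serves, had 1 of 7 higher and 1 lower. This is 28.6% called, near the 32.2% of all genes. M6PR, the other receptor of that tag, had 75.0 ± 2.95 and 86.8 ± 0.59 CPM (0.21, SE 0.063, edgeR adjusted p = 0.00875), a call lost with library totals alone (0.14, adjusted p = 0.0741) and without CAF replicate 2. GNPTAB, a subunit of the enzyme that adds the tag, fell by 0.27 (SE 0.072) on the log2 scale. The adaptor GGA2 had 109 ± 5.20 and 99.2 ± 2.13 CPM and was not called, but was called lower with library totals alone (-0.20, edgeR adjusted p = 0.00921). The proposed IGFBP3 partners LRP1, at 193 ± 16.1 and 171 ± 21.4 CPM, and TMEM219, at 83.7 ± 3.94 and 88.3 ± 9.48 CPM, were not called; LRP1 was called lower under 5 of the 14 alternatives. Of the IGF2 mRNA-binding proteins, IGF2BP2 rose by 0.19 (SE 0.058, adjusted p = 0.0129), a call lost under 4 alternatives, while IGF2BP1 and IGF2BP3 had -0.05 and -0.12 and were not called; with library totals alone IGF2BP3 was called lower (-0.19, adjusted p = 0.0397).

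**Figure D4:**
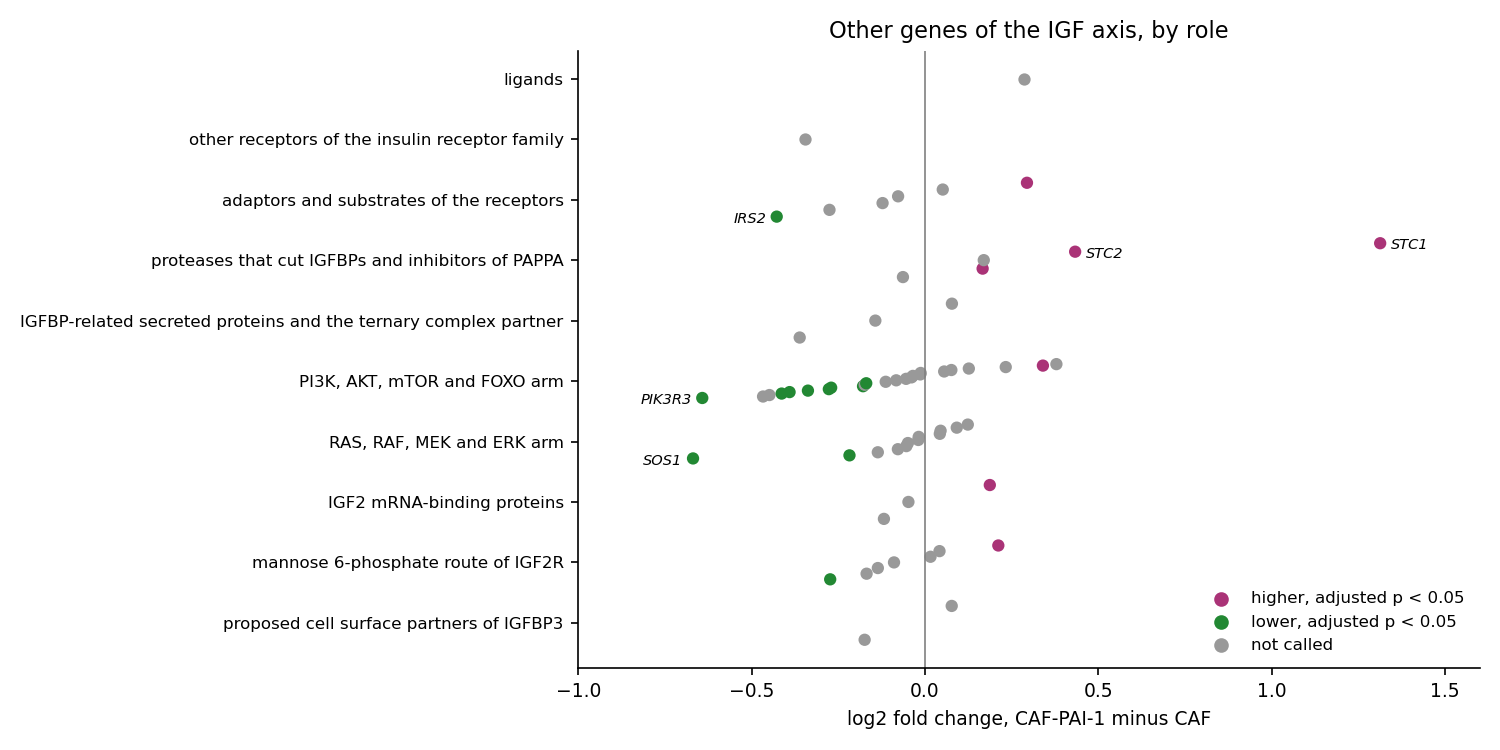
Log2 fold change, CAF-PAI-1 minus CAF (horizontal axis), of the 64 tested genes of the IGF axis that are not among the 10, in rows by role, with genes called higher in purple, lower in green and not called in grey; names are given to called genes beyond 0.42 in size. STC1, at 1.31, lies farthest to the right and SOS1, at -0.67, farthest to the left.

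Sequence overlap between genes limits some of these counts. Words of 31 bases from the transcripts of IGFBP1, IGFBP3, IGFBP4 and IGFBP6 were found in no other gene of GENCODE release 29 on either strand. For IRS1, IGF1R and IGF2R 0.413%, 0.300% and 1.12% of the words were shared, for IGFBP2 5.02% and for IGFBP5 4.18%, all of the latter with the antisense gene AC007563.2, which had 0 counts. IGFBP7 shared 16.3%, mostly with POLR2B.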

How the data were processed

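RNA of 6 Panc-1 libraries, 3 per group, was sequenced after oligo-dT selection, per the labels. The authors deposited whole-number counts per gene; RSEM, BWA and Bowtie2 and the build hg19 are listed in the submitters' processing notes, without roles or versions, and how whole numbers came about is not stated there. All 58735 gene identifiers match GENCODE release 29 on GRCh38, so coordinates identify genes and are not those of the alignment; 27 names that differed from the annotation, such as symbols turned into dates, were replaced by its names. How reads shared between genes were counted is not stated in the labels.

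The whole table was fitted with edgeR 4.0.16 in R 4.3.3: filterByExpr (minimum count 10, minimum total 15), TMM, robust quasi-likelihood test, no covariate, Benjamini-Hochberg adjustment over 14960 genes, threshold 0.05. Intervals are 95%, from the fitted log2 fold change and its SE. The common biological coefficient of variation was 6.06%. No 2 libraries of a group were copies (chi-square per degree of freedom 2.58 to 9.51). Alternatives were RLE scaling, library totals, 2 filters, DESeq2 1.42.0, limma-voom (limma 3.58.1), no robust estimation, a replicate block and each library left out. The test was checked on simulated data. Members and gene lists were chosen with earlier results of these data known. All members are named; of the larger lists, the ligands, other receptors, IGFBP3 partners and IGF2 mRNA-binding proteins, else up to 3 called genes per direction with the largest change and the 2 with the highest CPM; others are named for a role beside a result, and some genes that these rules select are not reported here. Promoters are from RefSeq (GRCh38.p14); proteins were not analysed here.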

Additional observations from a re-analysis of the deposited data

How the results depend on the processing

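The calls of IGFBP3, IGFBP4, IGF1R and IRS1 held under all 14 alternatives; 6 members were called in the reported fit and 5 to 7 under the alternatives. The number of members called was 5 with library totals alone, without CAF replicate 3 and without CAF-PAI-1 replicate 3. Genes of the IGF axis went from 7 higher and 12 lower to 4 higher and 19 lower with library totals alone, which shifts the median log2 fold change of all genes by -0.07. Leaving out single libraries gave 5 to 9 higher and 9 to 14 lower. IGFBP1, not called, changed sign without CAF replicate 1 (0.03) and without CAF-PAI-1 replicate 1 (0.13), within a range of -0.20 to 0.13 when single libraries were left out. Same-numbered libraries had small correlations of deviations from the group means, 0.002, 0.012 and 0.006 across genes. Yet 5 of 6 libraries correlated best with their own number, so these values do not settle whether replicate numbers pair the libraries. The replicate block gave 5069 changed genes, with 7 members, as IGF2R was then called (0.13, adjusted p = 0.0228). At this depth a gene under about 0.2 CPM, such as IGFBP5, cannot be compared, and 3 libraries a group limit the rest.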
